A study of Homo sapiens with 8 samples.

Results

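Collagen, laminin and other matrix genes were followed across the 4 groups of an RNA-seq experiment on CRISPR-based transcriptional activators. The genes were taken by symbol, as every protein-coding collagen chain and laminin chain in the files, together with *SPARC*, *FN1*, *FBN1*, *FBN2*, *NID1*, *NID2*, *HSPG2*, *AGRN*, *TNC*, *LOX*, *LOXL1*, *LOXL2*, *TIMP1*, *TIMP2* and *TIMP3*. This gave 62 of the 19770 genes. The cells were HEK293T, an established human embryonic kidney line, transiently transfected with plasmids and collected at 72 h post-transfection, with 2 libraries per group. Control cells received dCas9, a nuclease-inactive Cas9, with MCP-mCherry, in which a coat protein that binds the MS2 hairpins of the gRNA carries a fluorescent protein and no activator. CRISPR-DREAM cells (DREAM) received dCas9 with MCP-MSN, a fusion of transactivation domains that include those of MRTF-A and NRF2. Cells of the SAM system (SAM) received dCas9-VP64 with MCP-p65-HSF1, and dCas9-VPR cells (VPR) received dCas9 fused to VP64, p65 and Rta. All 4 groups, the control included, carried a pool of gRNAs against the fetal globin genes *HBG1* and *HBG2*, with MS2 hairpins in all groups but dCas9-VPR. No matrix gene was targeted in these libraries, although *SPARC* served as a gRNA target in other experiments of the study.

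The extracellular matrix is built from secreted collagens, whose chains wind into a triple helix, and from glycoproteins that link them to each other and to cells. Fibrillar collagens form fibres, FACIT collagens sit on the fibre surface, collagen VI forms beaded filaments, and collagen IV and the laminins form the sheets of the basement membrane, which nidogens, perlecan and agrin join. Lysyl oxidases crosslink collagen and elastin, TIMPs inhibit the metalloproteinases that degrade matrix, and SPARC is a secreted protein that binds collagen. Kidney epithelial cells are known for laying down basement membrane.

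Values were CPM (counts scaled to the sum of each library), after removal of the 0.0001 CPM that the authors had added to each value. Depth, estimated from the spacing of low values, was 28.5 to 35.2 M reads per library, so that 3 reads corresponded to 0.0853 to 0.105 CPM. *HBG2* was at 1.29 and 0.837 CPM in the control libraries and at 201 CPM or more in every other library, and *MRTFA* and *HSF1* were high in the DREAM and SAM libraries, respectively, in accord with the labels. *RELA*, the gene of p65, was between 45.4 and 51.2 CPM in all libraries and was not called with SAM or VPR (limma adjusted p = 0.934 and 0.508), so it does not mark the libraries of those groups. Of 9 markers of HEK293T cells, 8 were at 1 CPM or more in both control libraries. Of 9 fibroblast markers 7 were in the files, and their summed level was 18.8 to 19.9 CPM in control libraries, 16.2 to 17.6 CPM with DREAM, 23.1 to 23.8 CPM with SAM and 18.7 to 21.4 CPM with VPR. The 3 endothelial markers in the files summed to 0.542 to 0.880 CPM in control libraries, 2.95 to 3.04 CPM with DREAM, 3.80 to 4.18 CPM with SAM and 0.973 to 1.06 CPM with VPR, mostly from *KDR* and *PECAM1*. The third, *VWF*, was at 0.0638 and 0.0326 CPM in control libraries, 0 and 0.0351 CPM with DREAM, 0.0846 and 0.114 CPM with SAM and 0.229 and 0.225 CPM with VPR. *CD68*, a macrophage marker, was between 0.684 and 1.45 CPM in the control and between 2.93 and 5.62 CPM in the other groups. The 2 erythroid markers in the files summed to at most 0.515 CPM in any library, with *GATA1* listed at 0 in both control libraries. What part these markers have in the results was not tested, and in bulk libraries a change in the number of cells of a type and a change in RNA per cell cannot be told apart. The labels do not say whether the 2 libraries of a group came from separate cultures, so the p-values measure the spread between libraries, which may be technical.

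Promoter sequences were taken from RefSeq on GRCh38.p14, from 250 bases before to 50 bases after a RefSeq start of each gene, and 47 of the 62 genes had an entry. Among the 15 without one were *AGRN*, *COL14A1*, *COL1A1*, *COL2A1*, *COL3A1*, *COL5A2*, *COL6A1*, *COL6A5*, *COL8A1*, *COL9A3*, *LAMA1*, *LAMC3*, *LOXL2* and *TIMP2*. Shown are the windows of 4 genes that rose in at least 1 group (*SPARC*, *COL6A3*, *COL9A2* and *HSPG2*), and that of *COL4A2*, which shares 226 bases with the window of its head-to-head neighbour *COL4A1*. They lie at chr5:151686866-151687165 on the minus strand for *SPARC*, chr2:237414115-237414414 on the minus strand for *COL6A3*, chr1:40317237-40317536 on the minus strand for *COL9A2*, chr1:21937261-21937560 on the minus strand for *HSPG2* and chr13:110307034-110307333 on the plus strand for *COL4A2*. The RefSeq start is that of the gene in the files for *HSPG2*, but lies inside the gene interval of the files by 60 bases for *SPARC*, 43 for *COL6A3*, 527 for *COL9A2* and 1472 for *COL4A2*, so the *COL9A2* and *COL4A2* windows lie wholly within those intervals. Each is written 5′ to 3′ on the strand of its gene, and capitals mark matches on either strand to any of the motifs searched, which in these 5 windows were GC boxes only.
SPARC: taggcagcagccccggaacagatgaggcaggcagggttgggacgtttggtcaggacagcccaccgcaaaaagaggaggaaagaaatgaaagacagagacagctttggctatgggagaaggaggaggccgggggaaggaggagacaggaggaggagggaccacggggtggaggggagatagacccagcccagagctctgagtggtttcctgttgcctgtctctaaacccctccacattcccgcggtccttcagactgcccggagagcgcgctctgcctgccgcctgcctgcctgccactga
COL6A3: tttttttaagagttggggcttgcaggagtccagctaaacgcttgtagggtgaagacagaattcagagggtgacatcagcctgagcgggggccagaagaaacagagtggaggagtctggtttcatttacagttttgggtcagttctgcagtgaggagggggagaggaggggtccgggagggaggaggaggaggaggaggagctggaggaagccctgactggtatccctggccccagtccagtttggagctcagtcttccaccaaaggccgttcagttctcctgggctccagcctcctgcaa
COL9A2: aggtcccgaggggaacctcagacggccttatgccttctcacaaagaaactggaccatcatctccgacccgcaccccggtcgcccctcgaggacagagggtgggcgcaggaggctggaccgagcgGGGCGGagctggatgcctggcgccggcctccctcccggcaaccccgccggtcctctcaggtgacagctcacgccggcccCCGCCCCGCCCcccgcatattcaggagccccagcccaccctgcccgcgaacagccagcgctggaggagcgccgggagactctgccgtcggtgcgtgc
HSPG2: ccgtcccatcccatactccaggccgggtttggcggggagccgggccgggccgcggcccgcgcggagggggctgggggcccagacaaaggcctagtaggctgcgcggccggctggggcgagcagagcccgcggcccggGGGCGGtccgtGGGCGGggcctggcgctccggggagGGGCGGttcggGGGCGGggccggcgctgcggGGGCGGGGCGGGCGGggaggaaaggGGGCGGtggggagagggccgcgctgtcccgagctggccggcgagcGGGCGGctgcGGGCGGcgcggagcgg
COL4A2: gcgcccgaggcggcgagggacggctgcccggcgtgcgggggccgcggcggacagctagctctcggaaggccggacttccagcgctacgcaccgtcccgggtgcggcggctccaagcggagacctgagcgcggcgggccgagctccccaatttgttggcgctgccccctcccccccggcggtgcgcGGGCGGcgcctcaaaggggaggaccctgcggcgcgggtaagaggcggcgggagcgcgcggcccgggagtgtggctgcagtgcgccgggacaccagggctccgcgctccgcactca

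The *HSPG2* window held 10 GC boxes (GGGCGG), some of them overlapping, the *COL9A2* window 3 and the *COL4A2* window 1, whereas the *SPARC* and *COL6A3* windows held no match to any motif searched. GC content was 61.3% for *SPARC*, 56.3% for *COL6A3*, 71.7% for *COL9A2*, 83.3% for *HSPG2* and 77.7% for *COL4A2*, with a median of 66.7% over the 47 matrix windows and 58.3% over all 27305 promoter windows. The median number of CpG dinucleotides was 22 per matrix window and 14 per window overall. GC boxes occurred in 63.8% of matrix windows (30 of 47) and 44.6% of all windows. A TATA box (TATAAA) occurred in 8.51% and 11.95%, an AP-1 site (TGACTCA) in 2.13% and 4.92%, the core of the antioxidant response element bound by NRF2 (TGACNNNGC) in 4.26% and 13.6%, a heat shock element (GAANNTTC) in 10.6% and 6.87%, and the CArG box, to which the MRTF partner SRF binds, in 0% and 1.29%. Such a match is a description of the letters only.

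Basement membrane genes and *TIMP1* had the highest levels in the control. Per kilobase of exons, *TIMP1* was at 46.2 CPM, *NID1*, which encodes nidogen-1, at 25.9 CPM, *LAMC1*, the laminin γ1 chain, at 19.4 CPM and *LAMB2*, the laminin β2 chain, at 17.5 CPM. Of the collagens, the collagen VI chains *COL6A1* and *COL6A2* followed at 13.4 and 9.27 CPM per kb, while the third chain of that trimer, *COL6A3*, was at 0.0839 CPM per kb. The fibrillar collagens were lower, with *COL2A1* at 4.21, *COL1A1* at 0.972 and *COL5A2* at 0.178 CPM per kb. *FN1*, which encodes fibronectin, was at 2.97 CPM per kb and *SPARC* at 2.94 CPM per kb. Exon lengths were those of Gencode 44, a later release than the one the authors used.

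**Figure D1:**
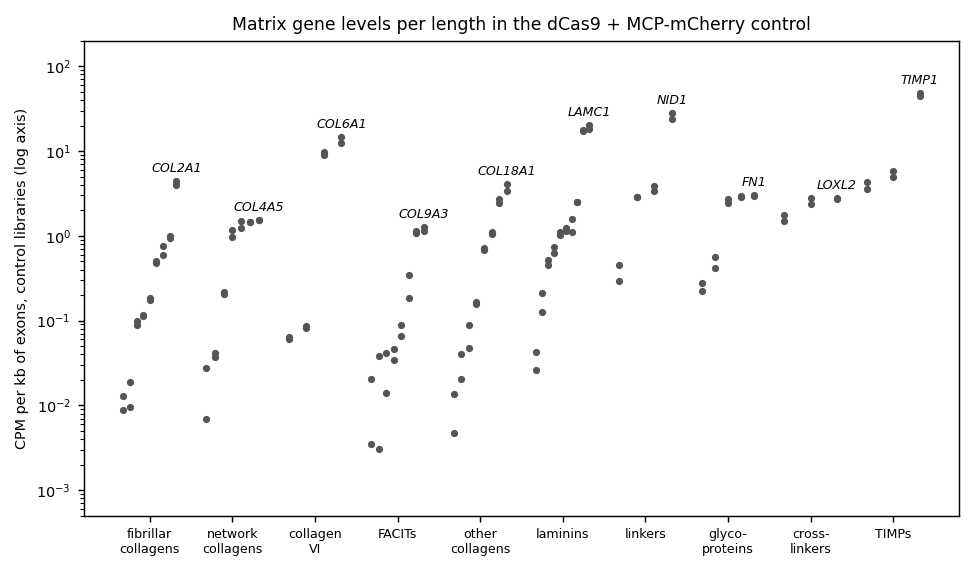
CPM per kilobase of exons (log axis) of matrix genes in the 2 dCas9 + MCP-mCherry control libraries, 1 point per library, ordered within each role, with the highest gene of each role named and values listed at 0 left off. *TIMP1* and *NID1* stand highest, and the collagen VI chains split into a high pair, *COL6A1* and *COL6A2*, and low chains.

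A minimum of 1 CPM in 2 or more libraries was set, and limma was run on log2(CPM + 0.5), which included 51 of the 62 matrix genes. Fold changes are on that scale, which understates the changes of low genes, and adjusted p-values are Benjamini-Hochberg values over all 15122 genes tested. A gene is said to have risen or fallen when its limma adjusted p was below 0.05. *COL16A1* reached 1 CPM with DREAM only, so its entry into the test rests on the DREAM values themselves. Its difference between DREAM and the control is therefore given as a description, without a p-value. The other 11 genes did not reach the minimum, and their highest value in any library was between 0.160 CPM (*COL5A3*) and 1.36 CPM (*COL8A2*). Among these low genes *COL8A2* was at 0.0319 and 0.130 CPM in control libraries, 0.727 and 0.351 CPM with DREAM, 0.886 and 1.36 CPM with SAM and 0.372 and 0.225 CPM with VPR. The genes that did not pass were *COL5A3*, *COL6A5*, *COL7A1*, *COL8A1*, *COL8A2*, *COL9A1*, *COL11A2*, *COL12A1*, *COL15A1*, *COL17A1* and *COL21A1*. A further 9 collagen and laminin symbols, *COL1A2* among them, were not in the files and so were not analysed.

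More matrix genes rose than fell in each comparison with the control. Among the tested genes, and on the log2(CPM + 0.5) scale, the largest rise was that of *SPARC* in all 3. Without the filter the low gene *COL8A2* gave 1.47 on that scale with SAM. With DREAM, 16 of the 51 tested genes rose (31.4%, against 18.8% of all genes tested) and 6 fell (11.8% against 9.25%). Without *COL16A1* these were 15 of 50 (30%) and 6. With SAM, 20 rose (39.2% against 35.7%) and 2 fell (3.92% against 8.89%), and with VPR 21 rose (41.2% against 11%) and 0 fell by the limma test (against 6.68%), also at an unadjusted p below 0.05, where limma without the trend and robust options gave 1 (and 0 after adjustment). The share that rose with SAM was thus near that of all genes. The median log2 fold change of the tested matrix genes was 0.22 with DREAM, 0.25 with SAM and 0.33 with VPR, where that of all genes was 0.06, 0.16 and 0.06. A fold change above 2 was passed upward by 6 genes with DREAM (11.8% against 2.04% of all genes, and 5 without *COL16A1*), 6 with SAM (11.8% against 3.89%) and 1 with VPR (1.96% against 0.463%), and downward by 0 in each by limma, the lowest log2 fold change of any tested matrix gene being -0.93, where all genes gave 0.503%, 0.456% and 0.641%. That gene, *COL3A1*, was past 2-fold downward with DREAM at a pseudocount of 0.1 (-1.05) and without control replicate 1 (-1.10) or DREAM replicate 2 (-1.04). The 3 comparisons share the 2 control libraries.

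**Figure D2:**
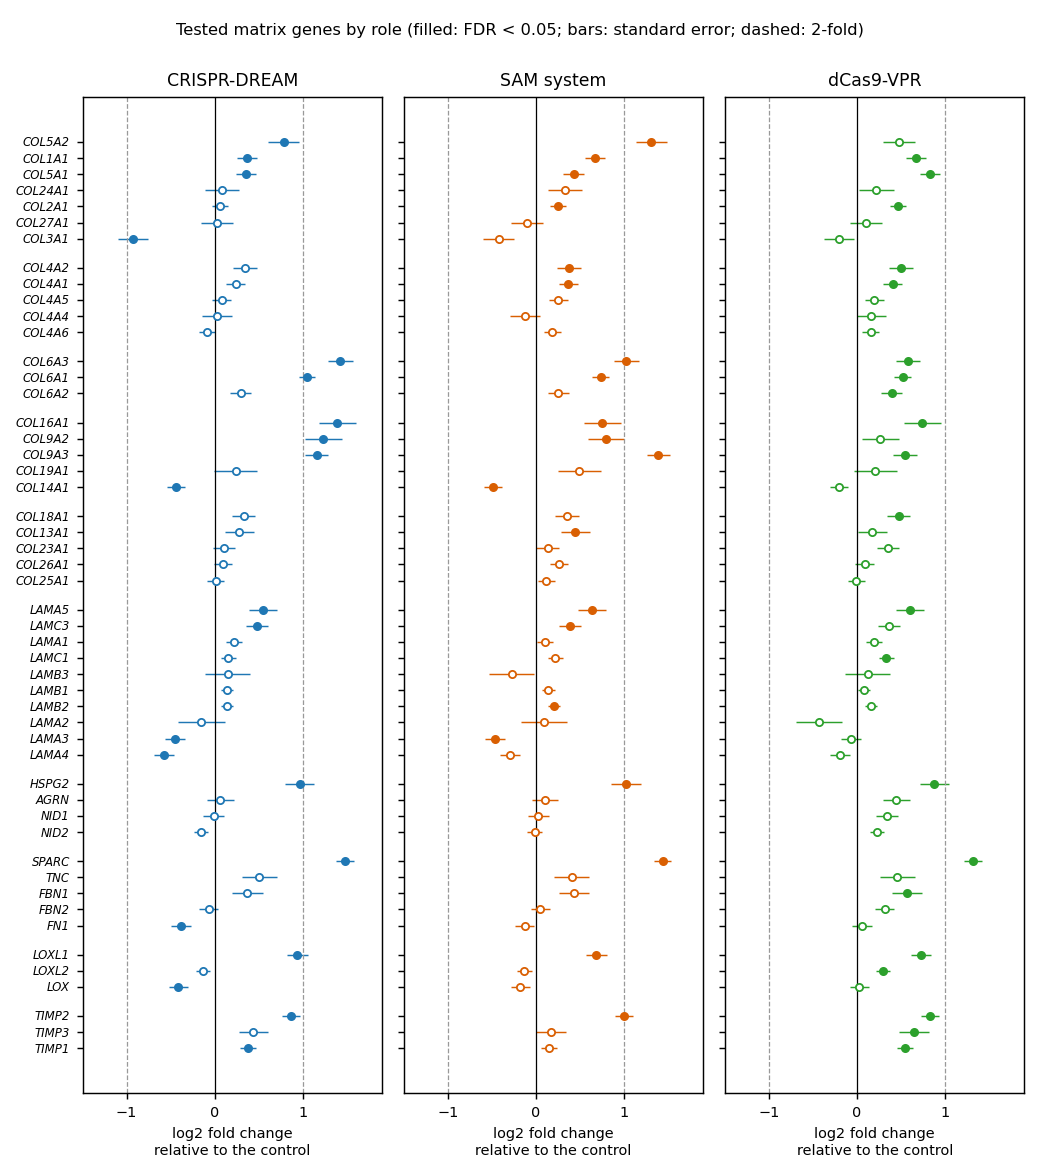
Log2 fold change relative to the control (horizontal axis, log2(CPM + 0.5) scale) of 50 tested matrix genes, grouped by role from fibrillar collagens at the top to TIMPs at the bottom, with DREAM, SAM and VPR in separate panels. Points are limma estimates, bars are standard errors, filled points have an adjusted p below 0.05 and dashed lines mark a 2-fold change. The DREAM point of *COL16A1* is a description, as this gene entered the test through DREAM. *SPARC* is past the dashed line in all 3 panels, and with VPR no filled point lies to the left of 0.

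Scaling and single libraries moved these counts. The shares of all genes under these settings are not given here, so the shifts cannot be called particular to matrix genes. Median-of-ratios scaling moved the median of all genes with SAM from 0.16 to -0.01, and the counts there became 13 higher and 7 lower in place of 20 and 2. With DREAM they became 14 and 6, and with VPR 20 and 0. With DREAM, 22 genes had been called in either direction and 14 were called without control replicate 2. With SAM 22 became 12 without control replicate 2 and 13 without SAM replicate 1. With VPR 21 became 7 without control replicate 2, 5 without VPR replicate 1 and 7 without VPR replicate 2. The genes called with every library left out in turn were 12 with DREAM (among them *SPARC*, *COL6A1*, *COL6A3*, *COL9A2*, *COL9A3*, *HSPG2*, *LOXL1*, *TIMP2*, *COL3A1* and *LAMA4*), 11 with SAM (among them *SPARC*, *COL6A1*, *COL6A3*, *COL9A3*, *COL1A1*, *COL5A2*, *HSPG2*, *LOXL1*, *TIMP2* and *COL14A1*) and 4 with VPR (*SPARC*, *COL5A1*, *LOXL1* and *TIMP2*). These include every gene past a 2-fold change. *COL16A1* is among those with DREAM, but it entered the test through the DREAM values. Without the trend and robust options of limma, the calls lost were those of *FN1* and *LAMA5* with DREAM, *COL2A1*, *COL4A2* and *LAMB2* with SAM, and *COL4A1*, *COL4A2*, *COL6A2*, *COL18A1*, *FBN1*, *LAMA5*, *LAMC1* and *TIMP3* with VPR (limma adjusted p from 0.0664 to 0.115).

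*SPARC* lies at chr5:151661096-151686975 on the minus strand. Its control libraries were at 13.4 and 13.9 CPM, against 35.4 and 43.1 CPM with DREAM, 35.5 and 40.3 CPM with SAM and 34.2 and 35.2 CPM with VPR. All 6 libraries with an activator were above both control libraries, and the 3 activator groups lay close together. The log2 fold change was 1.48 ± 0.10 (SE) with DREAM (limma adjusted p = 9.15e-06), 1.44 ± 0.10 with SAM (1.06e-05) and 1.31 ± 0.10 with VPR (6e-05), or 2.80-fold, 2.71-fold and 2.49-fold. Between activators the log2 difference was 0.05 for DREAM relative to SAM (95% interval -0.18 to 0.27, limma adjusted p = 0.797), 0.17 relative to VPR (-0.05 to 0.39, limma adjusted p = 0.306) and 0.12 for SAM relative to VPR (-0.10 to 0.35, limma adjusted p = 0.384). *SPARC* was the only matrix gene past a 2-fold change in all 3 comparisons with the control.

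The other glycoproteins and microfibril genes moved less, and of the 5 in this group, *SPARC* included, 1 rose and 1 fell with DREAM, 1 rose with SAM and 2 rose with VPR (18.8%, 35.7% and 11% of all genes rose). The shares that rose with DREAM and SAM (20% each) were near or below those of all genes. The 1 that fell with DREAM is also 20%, against 9.25% of all genes. *FN1* fell from 51.9 and 50.3 CPM in the control to 44.3 and 34.6 CPM with DREAM (log2 fold change -0.38 ± 0.11, limma adjusted p = 0.0314). This call was lost without control replicate 1, control replicate 2 or DREAM replicate 2. *FN1* was at 50.5 and 43.2 CPM with SAM and at 51.5 and 55.2 CPM with VPR, values not called different from the control. *FBN2*, which encodes the microfibril protein fibrillin-2, was at 48.7 and 43.4 CPM in control libraries, 49.3 and 39.0 CPM with DREAM, 50.9 and 44.6 CPM with SAM and 56.7 and 57.7 CPM with VPR, and the lowest adjusted p of these was 0.0765 by limma, with VPR. *FBN1* rose with VPR by 0.57 ± 0.17 on the log2 scale (limma adjusted p = 0.0494), a call lost without either VPR library, control replicate 2 or either SAM library. *TNC*, tenascin-C, was between 2.12 and 4.2 CPM in all libraries and was not called.

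For 2 of the 3 tested collagen VI chains the group levels followed the same order, though not every step was called. How often all genes show such an order was not tested. *COL6A1* (chr21:45981769-46005050, plus strand) was at 80.2 and 67.9 CPM in control libraries, 163 and 145 CPM with DREAM, 131 and 116 CPM with SAM and 110.4 and 101 CPM with VPR. The 4 groups did not overlap, and their order was DREAM, SAM, VPR and control. Its log2 fold change was 1.05 ± 0.09 with DREAM (limma adjusted p = 5.88e-05, 0.98 with median-of-ratios scaling), 0.74 ± 0.09 with SAM (0.000322) and 0.52 ± 0.09 with VPR (0.00655, a call lost without control replicate 2 or VPR replicate 1). *COL6A3* (chr2:237324003-237414207, minus strand) was at 1.85 and 1.76 CPM in control libraries, 6.26 and 5.20 CPM with DREAM, 4.4 and 4.01 CPM with SAM and 2.89 and 2.98 CPM with VPR, the same order and again without overlap. It rose by 1.43 ± 0.14 (limma adjusted p = 7.76e-05), 1.03 ± 0.14 (0.000369, 0.87 with median-of-ratios scaling) and 0.58 ± 0.14 (0.0202). The call with VPR was lost without any one control or VPR library. For both chains DREAM was above VPR (log2 difference 0.53 ± 0.09, limma adjusted p = 0.00676, for *COL6A1* and 0.85 ± 0.14, 0.00465, for *COL6A3*). DREAM and SAM were not called different (limma adjusted p = 0.0589 and 0.0891). SAM and VPR were not called different for *COL6A1*. *COL6A3* was higher with SAM than with VPR (0.45, limma adjusted p = 0.0335), a call lost with median-of-ratios scaling.

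*COL6A2*, the neighbour of *COL6A1* on chromosome 21, did not follow this order. It was at 51.5 and 47.4 CPM in control libraries, 66.0 and 56.3 CPM with DREAM, 65.4 and 53.3 CPM with SAM and 71.1 and 59.5 CPM with VPR. Its log2 fold changes were 0.30 ± 0.12 (limma adjusted p = 0.0873), 0.25 ± 0.12 (0.107) and 0.39 ± 0.12 (0.0478), and the last call was lost without any one control or VPR library.

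Of the 5 FACIT collagens tested, 3 rose and 1 fell with DREAM, 3 rose and 1 fell with SAM and 2 rose with VPR, where 18.8%, 35.7% and 11% of all genes rose and 9.25%, 8.89% and 6.68% fell. One of these 5 is *COL16A1*. Over the other 4, 2 rose with DREAM, 2 with SAM and 1 with VPR, 1 fell with each of the first 2 activators, and the median log2 fold changes were 0.70, 0.64 and 0.23. *COL9A3* (chr20:62816244-62841159, plus strand), a chain of collagen IX, was at 5.46 and 6.14 CPM in control libraries, 12 and 15.2 CPM with DREAM, 14.7 and 17.4 CPM with SAM and 8.97 and 8.39 CPM with VPR. The DREAM and SAM libraries overlapped, and both groups lay above VPR, which lay above the control. *COL9A3* rose by 1.16 ± 0.13 (limma adjusted p = 0.000208), 1.39 ± 0.13 (5.76e-05) and 0.54 ± 0.13 (0.0207), and the last call was lost without any one control or VPR library. *COL9A2* (chr1:40300489-40317813, minus strand), another chain of the same trimer, was at 1.47 and 0.782 CPM in control libraries, 3.51 and 2.98 CPM with DREAM, 2.46 and 2.08 CPM with SAM and 1.43 and 1.38 CPM with VPR. It rose by 1.23 ± 0.21 (limma adjusted p = 0.0018) and 0.80 ± 0.21 (0.0109, a call lost without control replicate 2 or SAM replicate 1), while VPR lay within the spread of the control (0.26 ± 0.21, 0.405).

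*COL16A1* (chr1:31652263-31704319, minus strand) was at 0.191 and 0.0326 CPM in control libraries, the second below the level of 3 reads. It was at 1.14 and 1.05 CPM with DREAM, 0.457 and 0.597 CPM with SAM and 0.544 and 0.481 CPM with VPR, so that every activator library was above both control libraries. Its log2 difference from the control was 1.39 with DREAM, the group through which it entered the test. It rose by 0.76 ± 0.21 with SAM (limma adjusted p = 0.0145) and by 0.74 ± 0.21 with VPR (0.0367), and the fitted fold of so low a gene depends on the 0.5 CPM added. The call with SAM was lost without control replicate 2 or SAM replicate 2, and that with VPR without control replicate 2, either SAM library or either VPR library. *COL14A1* went the other way and is described with the genes that fell.

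**Figure D3:**
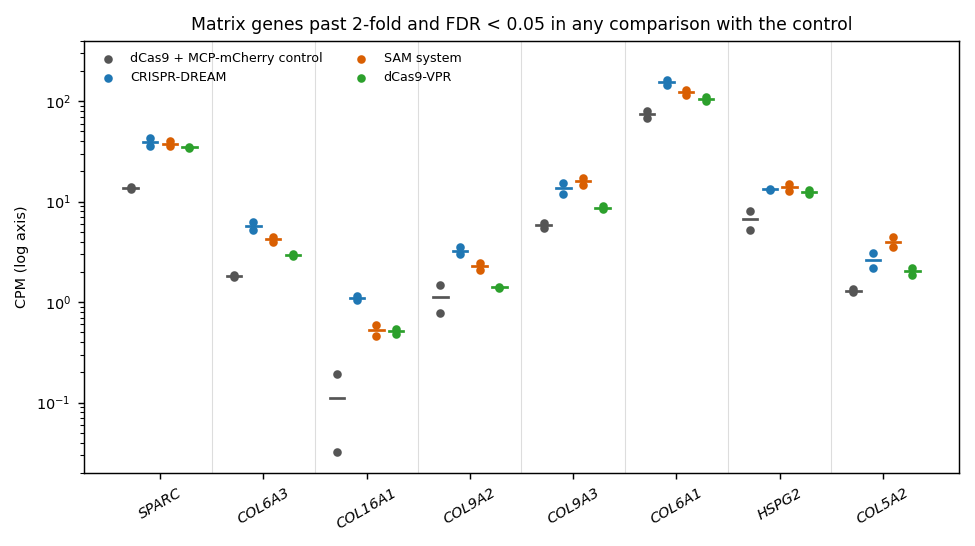
CPM (log axis) of 8 matrix genes past a 2-fold change and an adjusted p below 0.05 in any comparison with the control, 1 point per library and a bar at the mean of the 2 libraries of each group. *COL16A1* is included through DREAM only, the group through which it entered the test, so its place here is a description. *SPARC* has 3 activator groups side by side, from 34.2 to 43.1 CPM, whereas *COL6A1* and *COL6A3* step down from DREAM to SAM to VPR and *COL5A2* is highest with SAM.

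Of the 7 fibrillar collagens tested, 3 rose and 1 fell with DREAM, 4 rose with SAM and 3 rose with VPR (42.9%, 57.1% and 42.9% rose, against 18.8%, 35.7% and 11% of all genes), with medians of 0.08, 0.33 and 0.46 on the log2 scale. The 1 that fell with DREAM is 14.3%, against 9.25% of all genes. *COL5A2* (chr2:189031898-189225312, minus strand), a chain of collagen V, was at 1.34 and 1.27 CPM in control libraries, 3.07 and 2.21 CPM with DREAM, 3.57 and 4.44 CPM with SAM and 1.86 and 2.18 CPM with VPR. It was highest in the SAM libraries, above all others, and rose by 1.31 ± 0.18 there (limma adjusted p = 0.000369). With DREAM it rose by 0.79 ± 0.18 (limma adjusted p = 0.00883, lost without control replicate 2 or DREAM replicate 1), and with VPR the value was 0.48 ± 0.18 (0.0887). *COL5A1*, its partner chain, had another order, at 5.68 and 5.35 CPM in control libraries, 7.62 and 6.78 CPM with DREAM, 8.15 and 7.08 CPM with SAM and 10.3 and 10.0 CPM with VPR, and its largest rise was with VPR (0.83 ± 0.12, limma adjusted p = 0.00187). Its smaller rises with DREAM (0.36 ± 0.12, limma adjusted p = 0.0434) and SAM (0.43 ± 0.12, 0.013) were lost with median-of-ratios scaling and without control replicate 2 or replicate 1 of the activator, the first also without other single libraries. *COL1A1*, a chain of collagen I, rose by 0.37 ± 0.11 (limma adjusted p = 0.0331, lost with median-of-ratios scaling and without either control library or DREAM replicate 1), 0.67 ± 0.11 (0.00108) and 0.67 ± 0.11 (0.00432, lost without VPR replicate 2), from 9.0 and 8.51 CPM in the control. *COL2A1* rose with VPR (0.46 ± 0.09, limma adjusted p = 0.0079), from 29.8 and 26.3 CPM to 38.8 and 38.6 CPM, and with SAM by 0.26 ± 0.09 (0.0392), a call lost with median-of-ratios scaling. Both calls were lost without control replicate 2 or either VPR library, and the second also without SAM replicate 1. *COL24A1* and *COL27A1* were between 1.06 and 1.72 CPM in every library and were not called. *COL5A1*, *COL1A1* and *COL2A1* were chosen for description after their values were seen.

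The network and other collagens that passed the minimum for testing changed by less than 2-fold relative to the control. Of the 5 network collagens tested, 0 were called with DREAM by limma (1 higher at an unadjusted p below 0.05, and 0 without the trend and robust options). *COL4A1* and *COL4A2*, the most widespread collagen IV chains, rose with SAM and with VPR. *COL4A2* was at 28.5 and 23.8 CPM in control libraries, 36.9 and 30.2 CPM with DREAM, 36.9 and 31.2 CPM with SAM and 40.7 and 33.5 CPM with VPR. Its log2 fold changes were 0.35 ± 0.14 (limma adjusted p = 0.0811), 0.37 ± 0.14 (0.0463) and 0.49 ± 0.14 (0.0341). *COL4A1* gave 0.24 ± 0.11 (limma adjusted p = 0.127), 0.37 ± 0.11 (0.0194) and 0.41 ± 0.11 (0.0303). The SAM calls of both were lost with median-of-ratios scaling, without control replicate 2 and without SAM replicate 1, and the VPR calls without control replicate 2 or either VPR library. Without the trend and robust options 0 of the 5 were called with VPR (2 in the fit with them) and 1 with SAM. Median log2 fold changes of the 5 network collagens were 0.08, 0.25 and 0.19. By limma 0%, 40% and 40% of them rose with DREAM, SAM and VPR, where 18.8%, 35.7% and 11% of all genes rose. The share with SAM was thus near that of all genes. For the transmembrane, multiplexin and other collagens the shares by limma were 0%, 20% and 20%. Among the 5 tested transmembrane, multiplexin and other collagens, with medians of 0.11, 0.26 and 0.17, *COL18A1*, the precursor of endostatin, rose with VPR, from 34.7 and 28.4 CPM to 48.0 and 39.9 CPM (0.47 ± 0.13, limma adjusted p = 0.0387). With DREAM *COL18A1* was at 41.0 and 38.3 CPM (limma adjusted p = 0.0941) and with SAM at 45.5 and 35.7 CPM (0.0547). *COL13A1* rose with SAM (0.45 ± 0.17, limma adjusted p = 0.0488), a call lost with median-of-ratios scaling and without any one control, SAM or VPR library. The VPR call of *COL18A1* was lost without control replicate 2 or any one DREAM or VPR library.

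All 11 laminin chains in the files were tested. With DREAM 3 rose and 2 fell, with SAM 4 rose and 1 fell, and with VPR 2 rose, at medians of 0.15, 0.14 (-0.02 with median-of-ratios scaling) and 0.12 on the log2 scale. The shares that rose were 27.3%, 36.4% and 18.2%, against 18.8%, 35.7% and 11% of all genes, so that with SAM the laminins rose about as often as all genes. With DREAM 18.2% fell and with SAM 9.09%, against 9.25% and 8.89% of all genes, so that the share with SAM was near that of all genes. Without the trend and robust options 0 were called with VPR. *LAMA3* fell with DREAM and with SAM, and *LAMB3* was between 0.455 and 1.20 CPM in all libraries and was not called. The abundant chains were nearly level. *LAMC1* was at 172 and 156 CPM in control libraries, 199.6 and 167 CPM with DREAM, 199 and 182 CPM with SAM and 209.5 and 202 CPM with VPR, and rose in the last group (0.33 ± 0.09, limma adjusted p = 0.027, lost without control replicate 2 or either VPR library). *LAMB2* was between 117 and 142 CPM in all libraries and rose with SAM (0.21 ± 0.07, limma adjusted p = 0.03), a call lost with median-of-ratios scaling and without any one control or SAM library. *LAMB1* was between 46.4 and 54.0 CPM and was not called. *LAMA5*, chosen after its values were seen, rose from 22.3 and 15.8 CPM by 0.55 ± 0.16 with DREAM (limma adjusted p = 0.0299), 0.64 ± 0.16 with SAM (0.00992) and 0.60 ± 0.16 with VPR (0.0307), and each of these calls was lost without control replicate 2, the first also without either DREAM library, the second without SAM replicate 1 and the last without either VPR library. *LAMC3*, likewise chosen later, rose with DREAM (0.48 ± 0.13, limma adjusted p = 0.0167) and with SAM (0.38 ± 0.13, 0.0295), calls lost without control replicate 2 or replicate 1 of the activator, and the second also with median-of-ratios scaling.

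Of the 4 genes that link the basement membrane, 1 rose in each comparison with the control. This is 25%, where 18.8% of all genes rose with DREAM, 35.7% with SAM and 11% with VPR. With SAM the share was thus below that of all genes. The gene that rose was *HSPG2*, which encodes perlecan (chr1:21822244-21937310, minus strand). *HSPG2* was at 8.15 and 5.28 CPM in control libraries, 13.5 and 13.2 CPM with DREAM, 15 and 12.9 CPM with SAM and 13.0 and 12 CPM with VPR. The spread was widest in the control, and every activator library was above it. The log2 fold changes were 0.97 ± 0.17 (limma adjusted p = 0.00223), 1.02 ± 0.17 (0.001, 0.85 with median-of-ratios scaling) and 0.88 ± 0.17 (0.00781, lost without VPR replicate 1). DREAM and SAM differed by -0.05 (95% interval -0.42 to 0.32). The other 3 were not called relative to the control. *NID1* was at 163 and 138 CPM in control libraries, 167 and 132 CPM with DREAM, 169 and 139 CPM with SAM and 187 and 194 CPM with VPR (0.34 ± 0.12, limma adjusted p = 0.0835). *AGRN*, which encodes agrin, was at 42.1 and 35.9 CPM in control libraries, 47.1 and 35.2 CPM with DREAM, 47.4 and 37.0 CPM with SAM and 54.7 and 51.7 CPM with VPR (0.45 ± 0.15, limma adjusted p = 0.0653). The medians of the group were 0.03, 0.07 and 0.39, the first 2 of which turned to -0.05 and -0.11 with median-of-ratios scaling.

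Crosslinking enzymes moved in different directions. *LOXL1* (chr15:73925989-73952137, plus strand) was at 6.44 and 5.38 CPM in control libraries, 11.6 and 11.9 CPM with DREAM, 10.1 and 9.45 CPM with SAM and 10.7 and 9.53 CPM with VPR, and all activator libraries were above the control. It rose by 0.94 ± 0.12 (limma adjusted p = 0.000301), 0.69 ± 0.12 (0.0011) and 0.73 ± 0.12 (0.00327). The antisense gene *LOXL1-AS1*, at a mean of 14.8 CPM, overlaps it, and no source used here states that the counting used strand. *LOXL2*, chosen after its values were seen, was between 14.9 and 16.7 CPM in all libraries but those with VPR, at 19.7 and 20.9 CPM (0.29 ± 0.08, limma adjusted p = 0.0359, lost with median-of-ratios scaling and without any one control, SAM or VPR library). *LOX* fell with DREAM. The medians of these 3 genes were -0.13, -0.13 and 0.29.

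The 3 TIMP genes all rose with VPR, 2 of them with DREAM and 1 with SAM (11%, 18.8% and 35.7% of all genes rose, in that order), with medians of 0.44, 0.17 (-0.01 with median-of-ratios scaling) and 0.64 for DREAM, SAM and VPR. Without the trend and robust options 2 rose with VPR. *TIMP2* (chr17:78852977-78925387, minus strand) was at 26.5 and 22.4 CPM in control libraries, 49.0 and 41.0 CPM with DREAM, 49.5 and 48.9 CPM with SAM and 45.2 and 42.5 CPM with VPR. It rose by 0.87 ± 0.10 (limma adjusted p = 0.000222), 1.00 ± 0.10 (7.61e-05, just short of 2-fold) and 0.83 ± 0.10 (0.000827), and DREAM and SAM differed by -0.13 (95% interval -0.36 to 0.09). *TIMP1* was at 69.3 and 64.4 CPM in control libraries, 93.3 and 80.9 CPM with DREAM, 80.1 and 68.3 CPM with SAM and 101 and 95.1 CPM with VPR. It rose by 0.38 ± 0.09 with DREAM (limma adjusted p = 0.0113, lost without control replicate 2 or DREAM replicate 1) and 0.55 ± 0.09 with VPR (0.00394, lost without VPR replicate 1), and the SAM value was 0.15 (0.209). *TIMP3*, chosen after its values were seen, rose with VPR by 0.64 ± 0.17 (limma adjusted p = 0.0288), from 26.4 and 23.0 CPM to 41.3 and 36.5 CPM, a call lost without control replicate 2 or either VPR library.

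The matrix genes that fell did so with DREAM or SAM. With DREAM these were *COL3A1*, *LAMA4*, *LAMA3*, *COL14A1*, *LOX* and *FN1*, and with SAM *LAMA3* and *COL14A1*. All but *FN1* were chosen for description after their values were seen. *COL3A1*, the chain of the homotrimeric collagen III, was at 3.99 and 5.18 CPM in control libraries, 1.96 and 2.35 CPM with DREAM, 2.97 and 3.58 CPM with SAM and 3.52 and 4.30 CPM with VPR. Its DREAM libraries were below all others, and its log2 fold change of -0.93 ± 0.17 (limma adjusted p = 0.00289) was the lowest of all tested matrix genes in any comparison with the control. The other values were -0.42 ± 0.17 (limma adjusted p = 0.0664) and -0.20 ± 0.17 (0.439). *LAMA4* fell from 13.7 and 14.8 CPM to 10.3 and 8.57 CPM with DREAM (-0.57 ± 0.11, limma adjusted p = 0.0044). *LAMA3* was at 7.59 and 6.62 CPM in control libraries, 5.16 and 4.95 CPM with DREAM and 5.17 and 4.83 CPM with SAM, with log2 fold changes of -0.45 ± 0.12 (limma adjusted p = 0.0167) and -0.46 ± 0.12 (0.00947), while VPR was at 6.75 and 6.71 CPM. *COL14A1*, a FACIT collagen, was at 11 and 11.6 CPM in control libraries, 8.60 and 7.83 CPM with DREAM (-0.44 ± 0.10, limma adjusted p = 0.0102) and 7.86 and 7.93 CPM with SAM (-0.49 ± 0.10, 0.00354). *LOX* fell from 15.7 and 13.4 CPM in the control to 10.2 and 11.4 CPM with DREAM (-0.41 ± 0.11, limma adjusted p = 0.0167). With DREAM the call of *COL14A1* was lost without control replicate 2, that of *LAMA3* without control replicate 1 or DREAM replicate 2 and that of *LOX* without control replicate 1 or DREAM replicate 1, and with SAM that of *LAMA3* without control replicate 1 or SAM replicate 2. With median-of-ratios scaling *COL3A1*, *FN1*, *LAMA4*, *LOX* and *LOXL2* were also called lower with SAM.

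Several matrix genes are neighbours in the genome, and their changes were set side by side. *COL3A1* (chr2:188974373-189012746, plus strand) and *COL5A2* face each other across 19151 bp. With DREAM *COL3A1* fell (-0.93) and *COL5A2* rose (0.79), and with SAM the values were -0.42 and 1.31. *COL6A1* and *COL6A2*, in tandem 93061 bp apart, gave 1.05 and 0.30 with DREAM, 0.74 and 0.25 with SAM and 0.52 and 0.39 with VPR. The head-to-head pair *COL4A1* and *COL4A2*, whose intervals in the files overlap by 1346 bp, lay close together, with 0.24 and 0.35, 0.37 and 0.37, and 0.41 and 0.49. *COL4A6* and *COL4A5*, head to head on chromosome X with 340 bp between them, were not called in any comparison with the control, at -0.08 and 0.08, 0.19 and 0.25, and 0.15 and 0.19. The differences within pairs were not tested.

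**Figure D4:**
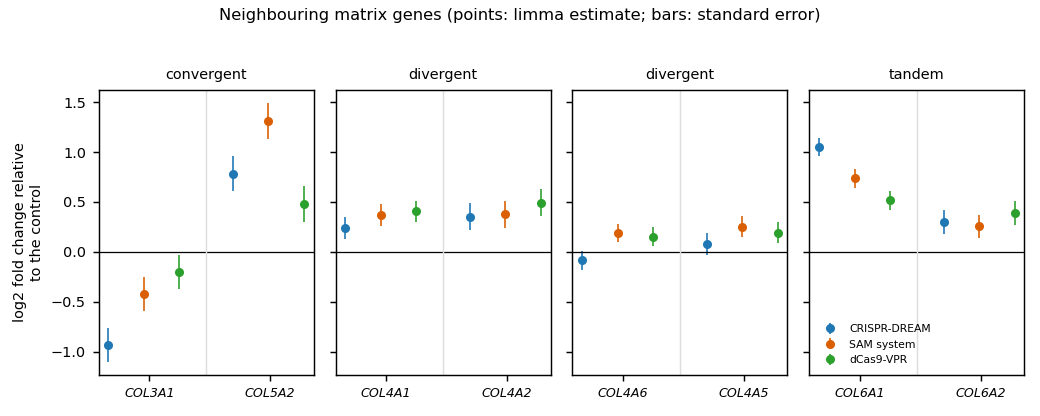
Log2 fold change relative to the control (vertical axis, log2(CPM + 0.5) scale) of 4 pairs of neighbouring matrix genes, by arrangement on the chromosome. Points are limma estimates and bars are standard errors. *COL3A1* and *COL5A2* lie on opposite sides of 0, and *COL4A1* and *COL4A2* lie together between 0.24 and 0.49.

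In direct comparisons a few matrix genes were called different between VPR and the other systems. Most of these shares were near or below those of all genes, except that of genes lower with DREAM. Relative to VPR, 5 genes were higher with DREAM (*COL6A1*, *COL6A3*, *COL9A2* and *COL9A3* among them, 9.80% against 7.9% of all genes) and 8 were lower (*COL2A1*, *COL3A1*, *COL5A1*, *FBN2*, *FN1*, *LOX*, *LOXL2* and *NID2*, 15.7% against 5.21%), with 0 past 2-fold by limma (against 0.734%). The median was -0.11, and 0.02 for all genes. The largest difference was that of *COL9A2* (0.97 ± 0.21, limma adjusted p = 0.0142). These 13 calls became 6 without DREAM replicate 2, 2 without VPR replicate 1 and 1 without VPR replicate 2, and *COL6A3* was the 1 called with every library left out in turn. Relative to VPR, 4 genes were higher with SAM (*COL5A2*, *COL6A3* and *COL9A3* among them, 7.84% against 23.6%) and 4 were lower (*COL5A1*, *LAMA3*, *LOXL2* and *TIMP1*, 7.84% against 6.32%), with a median of -0.05, and 0.10 for all genes. Past 2-fold there was 1 gene, higher with SAM (1.96% against 2.31%). Median-of-ratios scaling turned the split into 3 higher and 14 lower. The 8 calls became 3 without SAM replicate 2 or VPR replicate 1, 5 without VPR replicate 2, 13 without DREAM replicate 1 and 12 without DREAM replicate 2, and those of *COL9A3* and *LOXL2* were among the calls that held with every library left out in turn.

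DREAM and SAM were called different by limma for 1 matrix gene, which was lower with DREAM. That is 1.96% of the tested matrix genes against 9.14% of all genes, 0 were higher (against 1.59%) and 0 were past 2-fold (against 0.721%). The median was -0.06 (0.05 with median-of-ratios scaling), and -0.09 for all genes. At an unadjusted p below 0.05 the limma counts were 4 higher and 6 lower, and without the trend and robust options 1 gene was higher at the adjusted threshold. With median-of-ratios scaling 3 genes, *COL6A1*, *COL6A3* and *TIMP1*, were called higher with DREAM beside the 1 lower. The 1 call was lost without DREAM replicate 2 or either SAM library, and without DREAM replicate 1 there were 5 calls, all lower.

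Genes that act on the matrix were taken from lists of collagen processing and secretion, matrix receptors, matrix proteases and matrix regulators. Of 25 processing genes tested, 9 rose and 1 fell with DREAM, 13 rose and 3 fell with SAM and 7 rose with VPR, with medians of 0.10, 0.20 and 0.14 on the log2 scale. The shares that rose were 36%, 52% and 28%, where 18.8%, 35.7% and 11% of all genes rose, and 4% and 12% fell with DREAM and SAM, where all genes gave 9.25% and 8.89%. With median-of-ratios scaling the counts were 8 and 3, 5 and 8, and 4 and 0. *LOXL3*, a lysyl oxidase like *LOXL1*, was at 8.67 and 9.25 CPM in control libraries, 21.1 and 22.2 CPM with DREAM, 18.7 and 17.8 CPM with SAM and 14 and 13.9 CPM with VPR. Its groups did not overlap, and it was the 1 gene of this list past 2-fold, with DREAM (1.23 ± 0.09, limma adjusted p = 1.24e-05). Of 12 proteases and their relatives tested, 7, 9 and 5 rose and 0 fell by limma, at an unadjusted p below 0.05 or without the trend and robust options as well, with medians of 0.39, 0.50 and 0.36. These are 58.3%, 75% and 41.7% of the list, against the 18.8%, 35.7% and 11% of all genes that rose. Median-of-ratios scaling gave 6, 6 and 4 of the 12 higher, with medians of 0.32, 0.32 and 0.31. *ADAMTS4*, an aggrecan-cleaving protease, was at 0.798 and 1.21 CPM in control libraries, 13.4 and 14.7 CPM with DREAM, 10.8 and 11.9 CPM with SAM and 2.66 and 2.41 CPM with VPR, a rise of 3.29 ± 0.15 (limma adjusted p = 7.78e-07), 2.99 ± 0.15 (2.61e-06) and 1.03 ± 0.15 (0.00223). *PLAU*, urokinase, rose past 2-fold with SAM (1.12 ± 0.13, limma adjusted p = 0.000133), from 5.23 and 6.29 CPM to 12.1 and 14.2 CPM. *TIMP4*, the remaining TIMP, was at 0.542 and 0.456 CPM in control libraries, 1.83 and 1.62 CPM with DREAM and 1.69 and 1.45 CPM with SAM. Both control libraries were below 1 CPM, so *TIMP4* entered the test through activator libraries. Its log2 differences, 1.15 with DREAM and 1.05 with SAM, are therefore given as a description, without p-values. The protease counts with DREAM and SAM include it.

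Of 23 matrix receptors tested, 10 rose and 3 fell with DREAM, 12 rose and 1 fell with SAM and 8 rose with VPR, with medians of 0.15, 0.37 and 0.31 (SAM counts of 10 and 3 with median-of-ratios scaling). In this list 43.5%, 52.2% and 34.8% rose, against 18.8%, 35.7% and 11% of all genes, and 13.0% and 4.35% fell with DREAM and SAM, against 9.25% and 8.89%. The VPR count includes *ITGB3*, which reached 1 CPM with VPR only, and is 7 of 22 without it. *ITGA5*, the α chain of the fibronectin receptor, was at 36.7 and 31.8 CPM in control libraries, 82.9 and 75.2 CPM with DREAM (1.20 ± 0.09, limma adjusted p = 1.24e-05), 75.3 and 70.2 CPM with SAM (1.08 ± 0.09, 2.16e-05) and 53.6 and 49.1 CPM with VPR (0.58 ± 0.09, 0.00225). *DDR1*, a receptor tyrosine kinase for collagen, was at 24.8 and 22.2 CPM in control libraries, 52.3 and 48.3 CPM with DREAM, 49.8 CPM in both SAM libraries and 40.0 and 40.6 CPM with VPR (1.08 ± 0.08, 1.07 ± 0.08 and 0.77 ± 0.08, limma adjusted p = 1.08e-05, 1.14e-05 and 0.000253). *ITGA11*, a collagen receptor chain, was at 0.223 and 0.228 CPM in control libraries, 2.12 and 1.16 CPM with DREAM and 1.23 and 2.08 CPM with SAM. Its control libraries were below 1 CPM, so it too entered the test through activator libraries. Its log2 differences, 1.52 with DREAM and 1.54 with SAM, are given as a description, and the receptor counts with both include it. *BCAM*, a receptor for laminin, was past 2-fold with DREAM (1.09 ± 0.09, limma adjusted p = 2.09e-05), and *ITGB4*, a chain of a laminin receptor, with SAM (1.05 ± 0.19, 0.00145). Of 14 regulators tested, 7 rose and 1 fell, 6 rose and 1 fell, and 4 rose, in the same order of groups, with medians of 0.25, 0.28 and 0.14. The shares that rose were 50%, 42.9% and 28.6%, and that with SAM was near the 35.7% of all genes (18.8% with DREAM and 11% with VPR). With DREAM and with SAM 7.14% fell, near the 9.25% and 8.89% of all genes. *FBLN2*, which encodes the matrix glycoprotein fibulin-2, was at 2.36 and 3.16 CPM in control libraries, 15.6 and 14 CPM with DREAM (2.24 ± 0.13, limma adjusted p = 3.13e-06), 14.1 and 14.4 CPM with SAM (2.19 ± 0.13, 5.7e-06) and 8.90 and 8.50 CPM with VPR (1.51 ± 0.13, 0.000122). *CCN2*, connective tissue growth factor, rose from 3.86 and 3.72 CPM in the control to 8.60 and 11.7 CPM with SAM (1.29 ± 0.15, limma adjusted p = 0.000182), with 5.31 and 5.79 CPM for DREAM (0.50 ± 0.15, 0.0348) and 2.63 and 3.08 CPM for VPR (-0.36 ± 0.15, 0.13). Each of the 19 calls past 2-fold in these lists stayed below an adjusted p of 0.05 by limma when any single library was removed. The 19 include those of *ITGA11* and *TIMP4*, which entered the test through activator libraries, so their place among them is a description. With median-of-ratios scaling 6 of the 19 fell below 2-fold, namely *DDR1* (0.89), *ITGA5* (0.90), *ITGB4* (0.90), *PLAU* (0.95) and *TIMP4* (0.93) with SAM and *ADAMTS4* (0.99) with VPR.

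**Figure D5:**
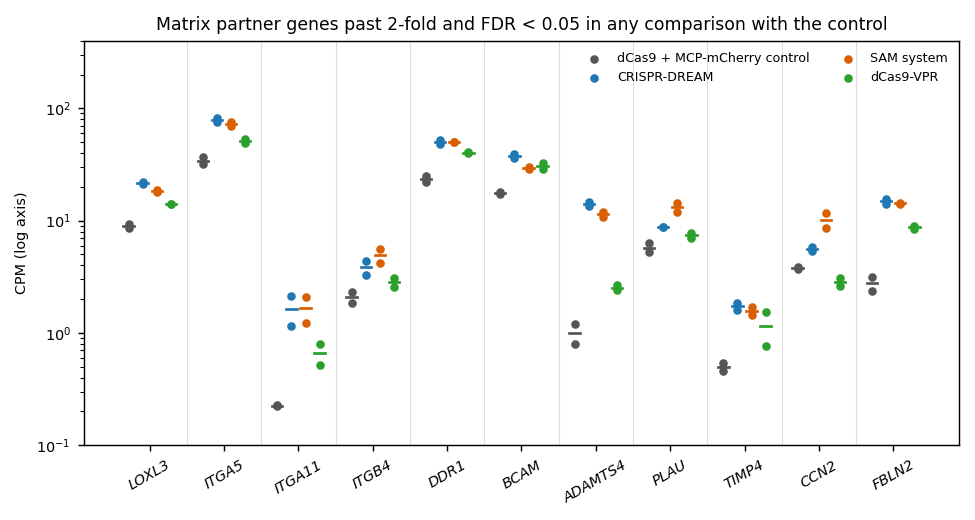
CPM (log axis) of the 11 processing, receptor, protease and regulator genes past a 2-fold change and an adjusted p below 0.05 in any comparison with the control, 1 point per library and a bar at the mean of each group. *ITGA11* and *TIMP4* entered the test through activator libraries, so their place here is a description. *ADAMTS4* and *FBLN2* are highest with DREAM and SAM and lower with VPR, and *CCN2* is high with SAM, at 8.60 and 11.7 CPM.

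Some matrix genes overlap other genes. Of the 62 matrix genes, 17 overlap another gene in the files, *LOXL2* with *ENTPD4* on the same strand and the others with a gene on the opposite strand. The most abundant such partner was *RTRAF*, at a mean of 174.1 CPM, which overlaps *NID2*, at 18.1 CPM. *LAMA5* overlaps *ADRM1* (mean 114.8 CPM), *LAMB1* overlaps *DLD* (126.5 CPM) and *COL9A3* overlaps *TCFL5* (24.4 CPM) by 155 bp. The study's methods name a stranded library kit, but no source used here states that the counting used strand. Whether reads of these pairs were shared was not tested.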

How the data were processed

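Total or poly(A) RNA (the study's methods name a total RNA kit, whereas the labels give polyA RNA) of 8 HEK293T libraries was sequenced. The authors aligned reads with STAR 2.7.3a to hg38 using Gencode 36 and deposited CPM values with an offset of 0.0001 CPM, which was subtracted here. The library kit named is a stranded one, but whether counting used strand is not given in the sources used here. Depth is unknown except as estimated from the spacing of low values, of which 64.1 to 74.4% per library were whole multiples of that spacing (tolerance 0.02), too few to recover reads, so no count model was run. The authors' own comparisons used DESeq2.

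The analysis used limma 3.58.1 (R 4.3.3, trend and robust options) on log2(CPM + 0.5) of all genes that reached 1 CPM in 2 or more libraries. There was 1 coefficient for each of the 4 groups, which share 1 spread over 4 residual degrees of freedom, and 6 contrasts were taken. Adjustment was by Benjamini-Hochberg over 15122 genes, with thresholds of 0.05 and, where stated, a fold change of 2. The script was tested on simulated data. Tables and figures used Python 3.11.15, pandas 2.3.3 and matplotlib 3.10.9. Positions are those of the authors' files (hg38), with ends given inclusively, and exon lengths are those of Gencode 44.

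The matrix genes, lists and tests were chosen with earlier results of these data known. Genes named with full values were those past both thresholds in any comparison, the 10 with the highest mean CPM and, in each role, the gene with the largest change among those called. Genes of the processing, protease, receptor and regulator lists were named where past both thresholds in any comparison with the control. Their comparisons between activators are not described here. Alternatives were another scaling, filter, pseudocount, set of libraries, library size, variance model and fold threshold, a replicate block, and leaving out each library. A few genes that were kept in the counts and in the adjustment are not reported here by name.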

Additional observations from a re-analysis of the deposited data

How the results depend on the processing

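The counts of matrix genes called depended on the filter, the scaling and single libraries. A filter at 10 CPM, which leaves fewer genes to test, gave 14 calls for DREAM and 14 for SAM relative to the control, 0 for DREAM relative to SAM, 8 for DREAM and 5 for SAM relative to VPR, and, past 2-fold, 3, 3 and, for SAM relative to VPR, 0. Median-of-ratios scaling gave 4 calls between DREAM and SAM and 17 between SAM and VPR, 0 of them past 2-fold. A fit of only the 4 libraries compared gave 15 for the latter, and limma without trend and robust options gave 2 between DREAM and SAM. A fold threshold of 1.5 gave 12, 13 and 9 genes relative to the control in the order DREAM, SAM and VPR, 1 between DREAM and SAM, and 4 and 3 for these relative to VPR. A pseudocount of 0.1 gave 2 genes past 2-fold with VPR and 1 between DREAM and VPR. Between SAM and VPR, no filter gave 2 and a pseudocount of 1 gave 0. Except for the filter, the cause was not tested.

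With 1 library left out in turn, the counts ranged from 14 to 23 with DREAM, 12 to 26 with SAM and 5 to 23 with VPR relative to the control, 0 to 5 between DREAM and SAM, and 1 to 15 and 3 to 13 for these relative to VPR. Past 2-fold they ranged from 4 to 9, 4 to 8 and 1 to 2 relative to the control, 0 to 1 between DREAM and VPR, 0 throughout between DREAM and SAM and 1 throughout between SAM and VPR. A group left with 1 library is assumed to vary like the others.

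The replicate numbers 1 and 2 occur in every group, but with 2 numbers a pairing was not established. Deviations of same-numbered libraries correlated at 0.133 to 0.326. With the replicate block the counts were 32, 33 and 28 relative to the control, 12 between DREAM and SAM, and 21 and 19 for these relative to VPR.

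Directions reversed only for named genes that had not been called. With median-of-ratios scaling the log2 fold changes were, with DREAM, -0.00693 for *AGRN* and, with SAM, -0.0732 for *AGRN*, -0.129 for *FBN2*, -0.0382 for *LAMB1*, -0.152 for *NID1* and -0.0348 for *TIMP1*. With 1 library left out in turn the log2 fold changes ran from -0.141 to 0.275 for *AGRN*, -0.236 to 0.0983 for *FBN2* and -0.181 to 0.157 for *NID1* with DREAM, from -0.0698 to 0.284 for *AGRN*, -0.0422 to 0.146 for *FBN2* and -0.114 to 0.173 for *NID1* with SAM, and from -0.0464 to 0.571 for *COL9A2* with VPR.

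With 2 libraries per group and 3 reads worth up to 0.105 CPM, changes in genes near that level, such as *COL16A1* in the control, were measured least well.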
